A study of Homo sapiens with 8 samples.

Results

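The KLF transcription factor family was followed through pachymic acid (PA) treatment of MIA PaCa-2 cells, an established line from a human pancreatic carcinoma. The 10 members were KLF2, KLF3, KLF4, KLF5, KLF6, KLF7, KLF9, KLF10, KLF11 and KLF13, and every probe set annotated with one of these symbols alone was taken, 32 of the 49395 probe sets on the array. Of these, 26 were tested, because the mean log2 signal of their brighter group was at least 4, against 38748 tested probe sets in all. At the level of genes, each read at its brightest probe set, all 10 members were tested among 15226 genes. PA is a triterpenoid of the fungus Poria cocos. The tested cells had received 30 μM PA for 24 h on 4 arrays, and the control cells had received the solvent DMSO for 24 h on 4 arrays (the design text calls them untreated). All arrays held total RNA of the same line, and the labels do not say whether the 4 treatments of a group came from separate passages or days. The p-values therefore measure only the spread between these samples.

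KLF proteins are zinc finger transcription factors that bind GC-rich and CACCC-type sequences through 3 C2H2 fingers at their C-terminal end, as do the related SP proteins. Their N-terminal parts differ and set their class. KLF2, KLF4, KLF5, KLF6 and KLF7 bind histone acetyltransferases and can activate genes, KLF3 recruits the corepressor CtBP, and KLF9, KLF10, KLF11 and KLF13 recruit the corepressor SIN3A. In epithelia and their tumors, members of the family act on differentiation, cell cycle arrest and proliferation, and several are induced quickly by growth factors, hormones or stress.

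PA lowered KLF9 and raised KLF2 and KLF6, and the other 7 members did not pass the test. KLF9 had the largest change of the family, a fall to 0.653 of the DMSO level, while KLF2 and KLF6 were 1.17-fold and 1.16-fold higher in PA cells. Of the 10 member genes, 2 rose, where 9.69% of all genes rose, and 1 fell, where 11.9% of all genes fell (limma, Benjamini-Hochberg adjusted p under 0.05 at any fold). These counts rest on 3 called genes. The median log2 change was -0.03 over the 10 members and 0.01 over all genes. Among the 26 tested probe sets of the family, 4 rose, against 8.0% of all probe sets, and 2 fell, against 9.07%, with a median change of 0.04 beside 0.02 over all probe sets. By class, 2 of the 5 activators rose and 0 fell (median 0.10), 1 of the 4 SIN3A-binding members fell and 0 rose (median -0.08), and KLF3 did not pass. At a change of at least 1.5-fold, 0 members rose, against 0.466% of all genes, and KLF9 alone of the 10 fell, against 0.709%. RNA was pooled over the cells of a sample, so a change in every cell and a change in some of the cells cannot be told apart.

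**Figure D1:**
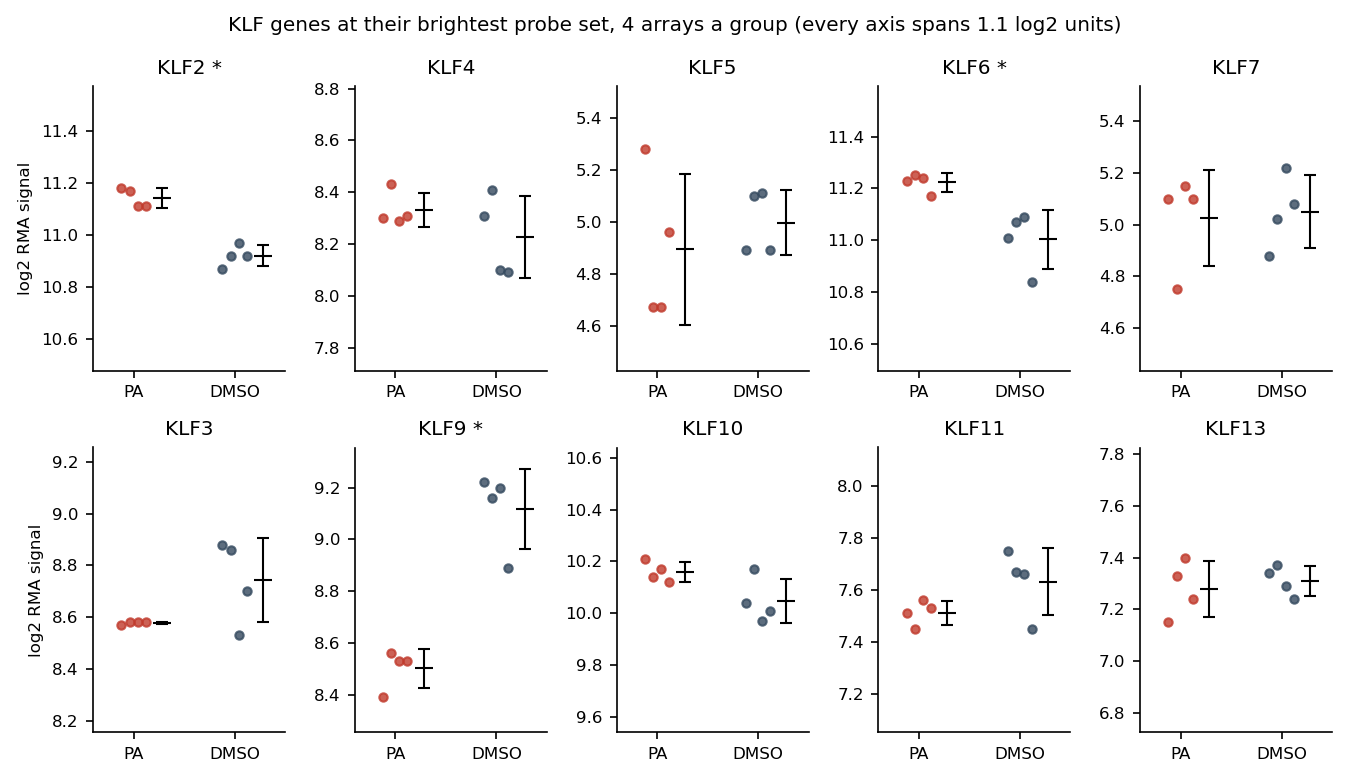
Log2 RMA signal (vertical axis, 1.1 log2 units in every panel) of the 10 KLF genes at their brightest probe set, with the 4 PA arrays in red on the left and the 4 DMSO arrays in dark blue on the right. Points are single arrays, bars are mean ± SD and a star marks an adjusted p under 0.05. The PA arrays of KLF9 lie wholly below the DMSO arrays, those of KLF2 and KLF6 wholly above, and the groups of the other 7 genes overlap.

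The promoter windows of the 3 called genes, from 250 bases before to 50 bases after the start in RefSeq on build GRCh38.p14, are printed 5′ to 3′ on the strand of the gene, since the family itself reads GC-rich DNA. Capitals mark the GC box GGGCGG on either strand, overlapping matches included. KLF2 is given on the plus strand of chr19:16324576-16324875, KLF6 on the minus strand of chr10:3785160-3785459 and KLF9 on the minus strand of chr9:70414608-70414907.
KLF2: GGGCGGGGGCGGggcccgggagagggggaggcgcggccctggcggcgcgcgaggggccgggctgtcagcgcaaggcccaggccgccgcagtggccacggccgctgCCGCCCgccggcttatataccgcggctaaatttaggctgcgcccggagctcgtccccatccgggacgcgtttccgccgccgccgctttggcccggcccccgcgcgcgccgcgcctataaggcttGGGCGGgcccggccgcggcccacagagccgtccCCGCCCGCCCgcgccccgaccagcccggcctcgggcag
KLF6: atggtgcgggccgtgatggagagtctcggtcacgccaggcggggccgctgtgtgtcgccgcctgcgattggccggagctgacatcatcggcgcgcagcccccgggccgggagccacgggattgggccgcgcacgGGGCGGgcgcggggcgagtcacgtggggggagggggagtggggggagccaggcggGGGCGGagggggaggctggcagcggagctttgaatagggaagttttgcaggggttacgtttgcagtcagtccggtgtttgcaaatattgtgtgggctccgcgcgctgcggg
KLF9: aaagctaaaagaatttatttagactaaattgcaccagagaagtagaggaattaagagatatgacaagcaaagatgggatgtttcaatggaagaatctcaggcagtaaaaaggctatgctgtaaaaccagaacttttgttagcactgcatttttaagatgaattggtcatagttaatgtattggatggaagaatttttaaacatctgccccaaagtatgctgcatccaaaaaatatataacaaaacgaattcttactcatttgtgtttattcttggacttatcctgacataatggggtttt
The KLF2 window holds 6 GC boxes, the KLF6 window 2 and the KLF9 window 0. The share of G and C was 80.7% for KLF2, 70.7% for KLF6 and 32.7% for KLF9, beside a median of 58.7% over all RefSeq windows of this length. Over the family, 13 windows of 8 members were found, and 8 of these windows, belonging to 7 of the 8 genes, hold GGGCGG, which 44.95% of 35116 windows hold. The CACCC box CCACCC was found in a window of KLF7 and of KLF13 (34.3% of all windows), and in KLF13 a copy overlaps a GC box. The cAMP response element TGACGTCA was found in a KLF11 window (1.85%), the TATA box TATAAA in a KLF5 window (11.5%) and the paired heat shock unit GAANNTTC in a KLF7 window (6.77%). The AP-1 motif TGACTCA was found in 0 of the 13 windows (4.95% of all windows). Both strands were searched, and a match describes the letters of the window only.

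KLF9, a SIN3A-binding repressor that glucocorticoids and thyroid hormone induce, was read at 4 probe sets. At the brightest, 11717326_at, the log2 signals were 8.39, 8.56, 8.53 and 8.53 in PA cells, against 9.22, 9.16, 9.20 and 8.89 in DMSO cells. The highest PA array thus stayed below the lowest DMSO array. The means were 8.50 ± 0.076 in PA cells and 9.12 ± 0.15 in DMSO cells (SD, n = 4 each), a log2 change of -0.61 with a standard error of 0.078, a 95% interval of -0.79 to -0.44 and an adjusted p of 0.00138 by limma. Ordered from the lowest log2 change, KLF9 was number 82 of the 15226 genes. Leaving out each array in turn gave changes of -0.69 to -0.58 with adjusted p-values of 0.000656 to 0.00578.

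The second probe set of KLF9 moved the same way and the third the other way. The second, 11717327_at, gave 7.40, 7.39, 7.42 and 7.38 in PA cells, against 7.89, 7.93, 7.96 and 7.79 in DMSO cells, a log2 change of -0.49 (limma adjusted p = 0.00068). It kept its call without any one of the 8 arrays, with adjusted p-values of 0.00127 to 0.00374. The third, 11717328_at, lies close to the limit of 4 and gave 4.44, 4.47, 4.37 and 4.51 in PA cells, against 4.26, 4.27, 4.25 and 4.05 in DMSO cells. All 4 PA arrays of this probe set lay above all 4 DMSO arrays, with a log2 change of 0.24 (limma adjusted p = 0.0301). That rise lost its call without DMSO replicate 4 (adjusted p = 0.0513) and without PA replicate 1 (0.0580), 2 (0.0749) or 4 (0.0797). The fourth, 11717329_at, was below the limit in both groups and was not tested, with signals of 3.64 to 4.08 in PA cells and 3.64 to 3.86 in DMSO cells.

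The change at the brightest KLF9 probe set differed from that at the third by -0.85 on the log2 scale (p = 0.0286 in an exact permutation test, two-sided, which with 4 and 4 arrays can give no smaller value). Adjusted over the 16 such pairs within the family this p was 0.229, and a single pair could not have passed that adjustment with so few arrays. The changes at the brightest and the second differed by -0.12 (exact permutation p = 0.114, adjusted 0.400). Which stretch of the transcript each probe set reads is not given in the files. With the mean of the tested probe sets in place of the brightest, KLF9 had a log2 change of -0.29 (limma adjusted p = 0.00729).

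**Figure D2:**
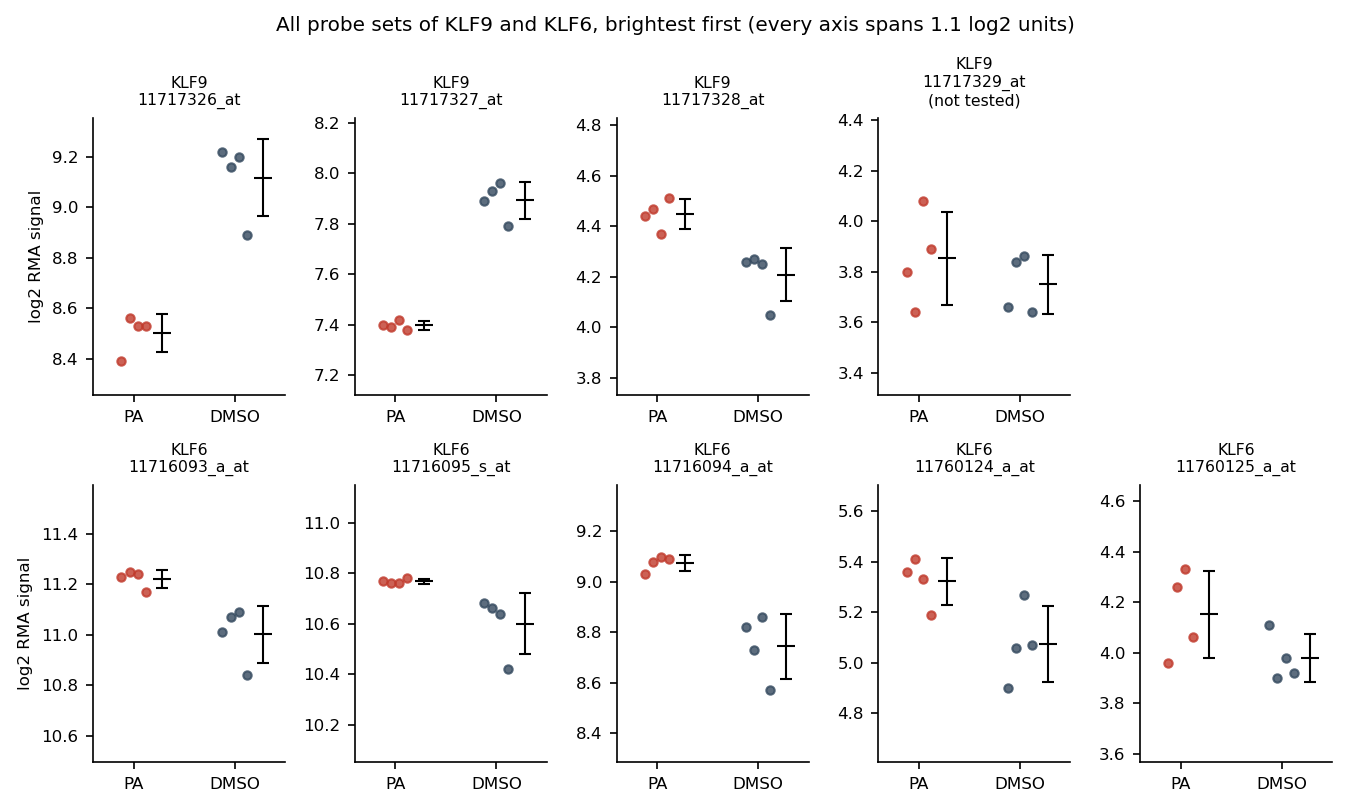
Log2 RMA signal (vertical axis, 1.1 log2 units in every panel) at each probe set of KLF9 (upper row) and KLF6 (lower row), brightest first, with PA arrays in red on the left and DMSO arrays in dark blue on the right; bars are mean ± SD of 4 arrays. The first and second probe sets of KLF9 are lower in all PA arrays and the third is higher in all PA arrays, while the 5 probe sets of KLF6 all have a higher mean in PA cells.

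KLF6, an early response gene that can activate the cell cycle inhibitor CDKN1A and is described as a tumor suppressor, was read at 5 probe sets. At the brightest, 11716093_a_at, the log2 signals were 11.23, 11.25, 11.24 and 11.17 in PA cells, against 11.01, 11.07, 11.09 and 10.84 in DMSO cells. The groups did not overlap. The means were 11.22 ± 0.036 in PA cells and 11.00 ± 0.11 in DMSO cells (SD, n = 4 each), a log2 change of 0.22 with a standard error of 0.060, a 95% interval of 0.08 to 0.36 and a limma adjusted p of 0.0305. The call depended on single arrays. It was lost without DMSO replicate 1 (adjusted p = 0.0630) and without PA replicate 1 (0.0639), 2 (0.0752) or 3 (0.0678), while the log2 change stayed between 0.17 and 0.25.

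All 5 probe sets of KLF6 had a higher mean in PA cells, with log2 changes of 0.17 to 0.33, and 2 of them passed. The dimmest, 11760125_a_at, lay at the limit, with means of 4.15 in PA cells and 3.98 in DMSO cells. The next, 11760124_a_at, had means of 5.32 and 5.08. At both the groups overlapped and the change did not pass (limma adjusted p = 0.203 and 0.0677). The largest change was at 11716094_a_at, with 9.03, 9.08, 9.10 and 9.09 in PA cells, against 8.82, 8.73, 8.86 and 8.57 in DMSO cells, a log2 change of 0.33 (limma adjusted p = 0.0110). It kept its call without any one of the 8 arrays (adjusted p of 0.0113 to 0.0324). At 11716095_s_at the groups did not overlap either, with 10.76 to 10.78 in PA cells and 10.42 to 10.68 in DMSO cells, but its log2 change of 0.17 did not pass (limma adjusted p = 0.0992). With the mean of its probe sets, KLF6 had a log2 change of 0.23 (limma adjusted p = 0.0148). The change at the brightest probe set differed from those at the other 4 by at most 0.11.

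KLF2 keeps endothelial cells and lymphocytes quiescent and can activate NOS3 and THBD in endothelium. Its brightest probe set, 11758208_s_at, is of the class marked s. There KLF2 had log2 signals of 11.18, 11.17, 11.11 and 11.11 in PA cells, against 10.87, 10.92, 10.97 and 10.92 in DMSO cells. Every PA array lay above every DMSO array, and the spread within each group was among the narrowest of the family. The means were 11.14 ± 0.038 in PA cells and 10.92 ± 0.041 in DMSO cells (SD, n = 4 each), a log2 change of 0.22 with a standard error of 0.042, a 95% interval of 0.13 to 0.32 and a limma adjusted p of 0.00708. The call held without any one of the 8 arrays, with adjusted p-values of 0.0108 to 0.0261. The second probe set, 11721805_at, gave 8.22, 8.11, 8.07 and 8.11 in PA cells, against 7.94, 7.83, 8.11 and 7.88 in DMSO cells. DMSO replicate 3 overlapped the PA arrays there, and the log2 change of 0.19 did not pass (limma adjusted p = 0.0901). Without that array it was 0.24 (adjusted p = 0.0257). Without any other single array it did not pass, with adjusted p-values of up to 0.206. With the GC-rich background controls, described below, as a term of the fit, this probe set had a log2 change of 0.018 (limma adjusted p = 0.937).

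At their brightest probe sets the other activators had log2 changes with intervals that include 0. At the second tested probe set the log2 change was 0.1975 for KLF4, -0.12 for KLF5 and -0.23 for KLF7. None of these passed (limma adjusted p = 0.207, 0.314 and 0.174). The signals below are those of the brightest probe sets. KLF4, one of the factors used to reprogram cells to pluripotency and a brake on epithelial proliferation, had 8.30, 8.43, 8.29 and 8.31 in PA cells, against 8.31, 8.41, 8.10 and 8.09 in DMSO cells. Its groups overlapped, and the 95% interval of the log2 change was -0.07 to 0.28 (limma adjusted p = 0.370). KLF5, a factor of proliferating crypt epithelium, had 5.28, 4.67, 4.67 and 4.96 in PA cells, against 4.89, 5.10, 5.11 and 4.89 in DMSO cells. It was the least precise of the family, with an interval of -0.40 to 0.20 (adjusted p = 0.618), and its brightest probe set is of a class that may match other sequences. KLF7, known from axon growth, had 5.10, 4.75, 5.15 and 5.10 in PA cells, against 4.88, 5.02, 5.22 and 5.08 in DMSO cells. Its groups overlapped as well, with an interval of -0.25 to 0.20 (limma adjusted p = 0.883). KLF5 and KLF7 lay near the signal limit of 4, and 3 of their 7 probe sets did not reach it.

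KLF3, the CtBP-binding repressor, had 8.57, 8.58, 8.58 and 8.58 in PA cells, against 8.88, 8.86, 8.53 and 8.70 in DMSO cells. The PA arrays were nearly alike and the DMSO arrays spread on both sides of them, and the log2 change had a 95% interval of -0.33 to 0.0048 (limma adjusted p = 0.149). Without DMSO replicate 3, the only array below the PA arrays, KLF3 had a log2 change of -0.24 (adjusted p = 0.0216). Without any other single array it did not pass, with adjusted p-values of up to 0.317. With the mean of the tested probe sets KLF3 had a log2 change of -0.07 (limma adjusted p = 0.305). With the GC-rich background controls as a term of the fit, KLF3 had a log2 change of 0.037 (limma adjusted p = 0.853). Its other 3 tested probe sets had log2 changes of -0.13, 0.00 and 0.02 and did not pass.

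Among the other SIN3A-binding members, KLF10 and KLF11 were first described as early genes induced by TGF-beta that slow the growth of epithelial cells, pancreatic ones included. KLF10 had 10.21, 10.14, 10.17 and 10.12 in PA cells, against 10.04, 10.17, 9.97 and 10.01 in DMSO cells. DMSO replicate 2 lay within the PA arrays and the other 3 DMSO arrays below them, with an interval of -0.0061 to 0.23 (limma adjusted p = 0.158). KLF11 had 7.51, 7.45, 7.56 and 7.53 in PA cells, against 7.75, 7.67, 7.66 and 7.45 in DMSO cells. In this gene 3 of the 4 DMSO arrays lay above all PA arrays, with an interval of -0.27 to 0.03 (limma adjusted p = 0.226). Without DMSO replicate 4 the log2 change was -0.18 (adjusted p = 0.0398). Without any other single array KLF11 did not pass, with adjusted p-values of up to 0.434. With the mean of its tested probe sets KLF11 had a log2 change of -0.024 (limma adjusted p = 0.801). KLF13, which activates the chemokine gene CCL5 in T cells, had 7.15, 7.33, 7.40 and 7.24 in PA cells, against 7.34, 7.37, 7.29 and 7.24 in DMSO cells. Its groups overlapped fully, with an interval of -0.17 to 0.11 (limma adjusted p = 0.761). At the second tested probe set the log2 change was 0.0875 for KLF10, -0.18 for KLF13 and, opposite to its brightest, 0.0725 for KLF11. None of these passed (limma adjusted p = 0.291, 0.324 and 0.625).

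**Figure D3:**
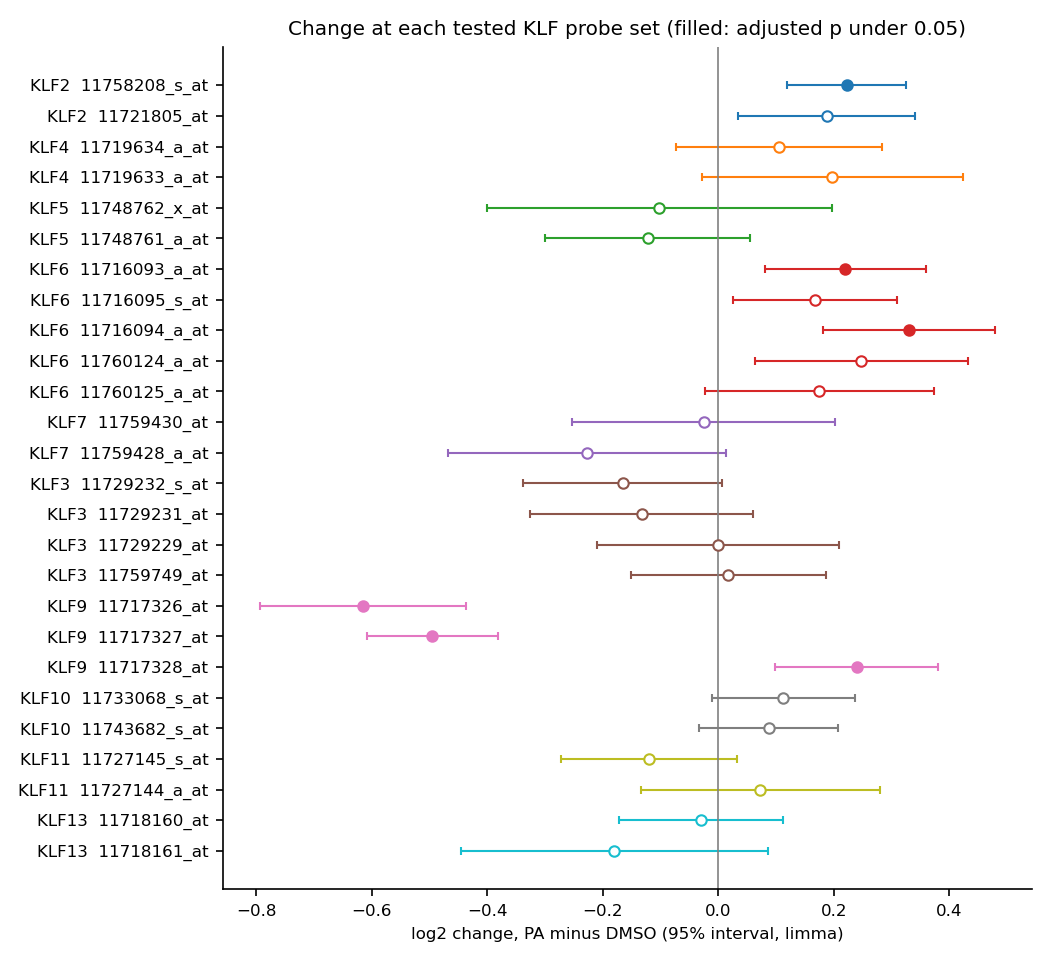
Log2 change, PA minus DMSO (horizontal axis), with its 95% limma interval at each of the 26 tested KLF probe sets, ordered by class and, within a gene, by brightness; colors mark genes and filled points have an adjusted p under 0.05 over all 38748 probe sets. The 6 filled points are 1 of KLF2, 2 of KLF6 and 3 of KLF9, of which the third lies on the other side of 0.

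All 4 PA arrays lay above all 4 DMSO arrays in 2 of the 10 genes, where 11.9% of all genes did so, and below them in 1, where 14.5% did so. For the 26 probe sets the counts were 5 above, against 11.1% of all probe sets, and 2 below, against 12.2%. The SD was smaller in PA cells than in DMSO cells in 7 of the 10 genes, with medians of 0.056 and 0.13 on the log2 scale. The share over all genes was not counted, so this cannot be read as a trait of the family. DMSO replicate 4 gave the lowest value of its group at 11 of the 26 probe sets and the highest at 1, and DMSO replicate 3 gave the highest at 11 and the lowest at 4.

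**Figure D4:**
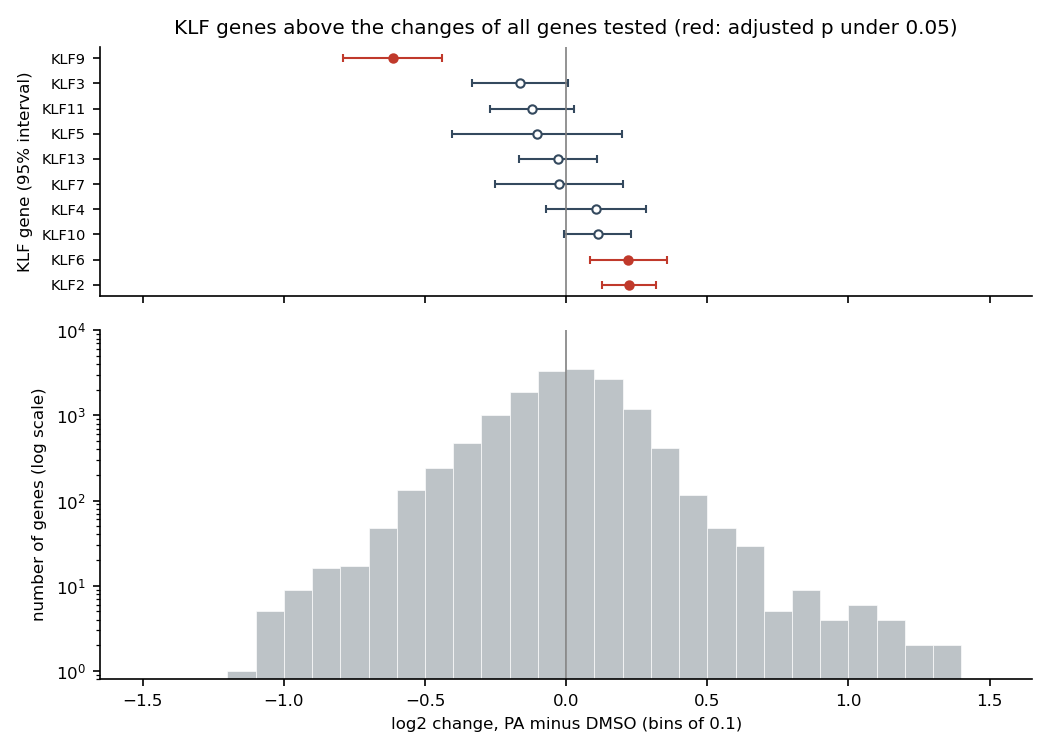
Upper panel, log2 change (PA minus DMSO) with 95% interval of the 10 KLF genes, red where the adjusted p is under 0.05. Lower panel, number of genes on a log scale in bins of 0.1 over the same axis for all genes tested, 2 of which lie beyond its right end; KLF9 lies in the sparse left part and the other 9 members within the dense middle.

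Some measures of the arrays themselves differed between the groups and others did not. The median signal was 5.74 to 5.77 on PA arrays and 5.71 to 5.74 on DMSO arrays, and Pearson's r over all probe sets other than controls ran from 0.9964 to 0.9977 for pairs of the same group and from 0.9930 to 0.9964 for pairs of a PA and a DMSO array. Background controls rich in G and C, 8 probe sets with 18 or more such bases of 25, had a mean of 6.92 to 7.12 on PA arrays and 6.59 to 6.95 on DMSO arrays (p = 0.0571, exact permutation test, two-sided). The other background controls (3.15 to 3.17 on PA arrays, 3.05 to 3.14 on DMSO arrays) and the spiked hybridization controls (10.98 to 11.07 on PA arrays, 10.91 to 10.96 on DMSO arrays) did not overlap between the groups (exact permutation p = 0.0286 each). With the GC-rich mean as a term of the fit, KLF9 had a log2 change of -0.54 (limma adjusted p = 0.0590), KLF2 of 0.17 (0.158) and KLF6 of 0.25 (0.200), and the standard errors of the 10 genes were 1.07 to 1.59 times as large. The second KLF9 probe set still passed in that fit (adjusted p = 0.0338). The epithelial keratins KRT8, KRT18 and KRT19 were at 11.68, 13.57 and 12.53 in PA cells and at 11.50, 13.39 and 12.70 in DMSO cells, whereas EPCAM, CDH1 and KRT7 were near the limit, at 4.18, 4.14 and 4.17 in PA cells and at 3.97, 4.14 and 4.39 in DMSO cells. VIM, listed as a mesenchymal trait, was at 14.39 in PA cells and 14.38 in DMSO cells and did not pass (limma adjusted p = 0.940). Of the markers of other cell types, DCN and LUM of fibroblasts, PTPRC and LYZ of leukocytes and GCG of endocrine cells were below the limit in both groups. Other markers of those lists were above it. The collagen gene COL1A2 was at 9.88 in PA cells and 10.41 in DMSO cells (log2 change -0.53, limma adjusted p = 0.00572). It was lowered at 3 of its 6 probe sets, with log2 changes of -0.74 to 0.155, and their mean changed by -0.37 (adjusted p = 0.0126). With the GC-rich background in the fit COL1A2 did not pass (adjusted p = 0.202). CD68 of macrophages, CDH5 of endothelium, CD79A of B cells and PRSS1 of acinar cells, which did not pass, were at 8.54, 7.93, 6.59 and 6.56 in PA cells and at 8.44, 7.54, 6.44 and 6.47 in DMSO cells. Their part in the results for the KLF genes was not tested.

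The genes around the family moved in both directions, and the lists below are described by counts, beside 9.69% of all genes raised and 11.9% lowered. Of 14 tested genes of the remaining KLF and SP family, KLF12 (log2 change 0.31, limma adjusted p = 0.0335) and KLF16 (0.18, 0.0382) rose and KLF15 (-0.19, 0.0363) fell, with a median of 0.07. With the mean of their probe sets neither rise passed, at 0.17 for KLF12 (adjusted p = 0.0811) and 0.083 for KLF16 (0.298). SP1 and SP3, the widely expressed relatives that bind the same GC boxes, had log2 changes of -0.13 and -0.24 and did not pass (adjusted p = 0.244 and 0.0519). With the GC-rich background in the fit, KLF12, KLF16 and KLF15 did not pass (adjusted p = 0.433, 0.366 and 0.476).

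Of 11 tested co-regulators that KLF proteins bind, 6 fell and 0 rose, with a median log2 change of -0.15. The acetyltransferases KAT2B (log2 change -0.49, limma adjusted p = 0.00407), EP300 (-0.38, 0.00612) and CREBBP (-0.32, 0.00193), which the activating members bind, and the deacetylase HDAC3 (-0.24, 0.00973) had the smallest adjusted p-values. The other 2 were HDAC1 (-0.15, 0.0368) and SAP30 (-0.34, 0.0191), a subunit of the SIN3 complex. With the mean of the probe sets of a gene 4 of the 11 fell, since HDAC1 (-0.021, adjusted p = 0.738) and SAP30 (-0.099, 0.142) did not pass. The corepressor genes CTBP1, CTBP2, SIN3A and SIN3B did not pass, with log2 changes of -0.07, -0.06, -0.12 and 0.04. With the GC-rich background in the fit, the adjusted p-values of KAT2B, EP300, CREBBP and HDAC3 were 0.146, 0.197, 0.0656 and 0.262.

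The ERK5 kinase route, which acts through MEF2 factors to induce KLF2 and KLF4 in endothelium, had 4 of its 7 tested genes lowered and 0 raised, with a median log2 change of -0.22. These were the kinase MAP2K5 (-0.37, limma adjusted p = 0.00307), its substrate MAPK7, which encodes ERK5 itself (-0.22, 0.0274), and the factors MEF2A (-0.30, 0.00246) and MEF2D (-0.24, 0.0271). MAP2K5 was tested at 1 of its 4 probe sets, and MEF2A was lowered at 2 of its 4. With the mean of the probe sets of a gene 3 of the 7 fell, with a median of -0.055. In that reading MEF2D had a log2 change of -0.03 (adjusted p = 0.741), and 1 of its 6 probe sets was lowered. In the fit with the GC-rich background MAP2K5 passed (adjusted p = 0.0444), whereas MEF2A, MEF2D and MAPK7 did not (0.0798, 0.519 and 0.360).

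Of 10 tested genes of the TGF-beta route, which induces KLF10 and KLF11, SMAD3 rose (log2 change 0.24, limma adjusted p = 0.0216) and the inhibitory SMAD6 fell (-0.82, 0.00410), with a median of 0.04. With the mean of its probe sets SMAD3 had a log2 change of 0.15 and did not pass (adjusted p = 0.0623). SMAD6 was lowered at 1 of its 3 probe sets, and their mean changed by -0.25 (adjusted p = 0.00582). Of 5 tested genes around the glucocorticoid receptor, which induces KLF9, the receptor gene NR3C1 fell (-0.49, 0.000395) at all 10 of its probe sets, with log2 changes of -0.61 to -0.43. PER1, a clock gene and receptor target, also fell (-0.50, 0.0250), at 1 of 3 probe sets and by 0.19 with their mean (adjusted p = 0.0283), and the phosphatase DUSP1, a receptor target that other signals also induce, rose (0.78, 5.5e-05), with a median of 0.02 for the list. The receptor targets FKBP5 and TSC22D3 did not pass, with log2 changes of 0.13 and 0.02 (adjusted p = 0.0696 and 0.882). NR3C1 and DUSP1 also passed with the GC-rich background in the fit (adjusted p = 0.0238 and 0.0065), whereas PER1, SMAD3 and SMAD6 did not (0.208, 0.448 and 0.160). All 7 tested ubiquitin ligases that act on KLF proteins, among them WWP1 and FBXW7, which target KLF5, did not pass (median -0.02).

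Of 22 tested genes reported as direct KLF targets, 4 rose and 0 fell, with a median log2 change of 0.09. They were CDKN1A (log2 change 0.90, limma adjusted p = 0.000203), which KLF4 and KLF6 can activate, the protease gene PLAU (0.39, 0.00117), the cyclin CCND1 (0.31, 0.00188) and ODC1, the first enzyme of polyamine synthesis (0.19, 0.0217). CCND1 and ODC1 are described as genes that KLF4 represses. The endothelial KLF2 targets NOS3 and THBD had log2 changes of 0.04 and 0.19 and did not pass, and CCNB1 and MYC were at 0.00 and 0.08. With the GC-rich background in the fit, CDKN1A, PLAU and CCND1 still passed (adjusted p = 0.0065, 0.0483 and 0.0455) and ODC1 did not (0.265).

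**Figure D5:**
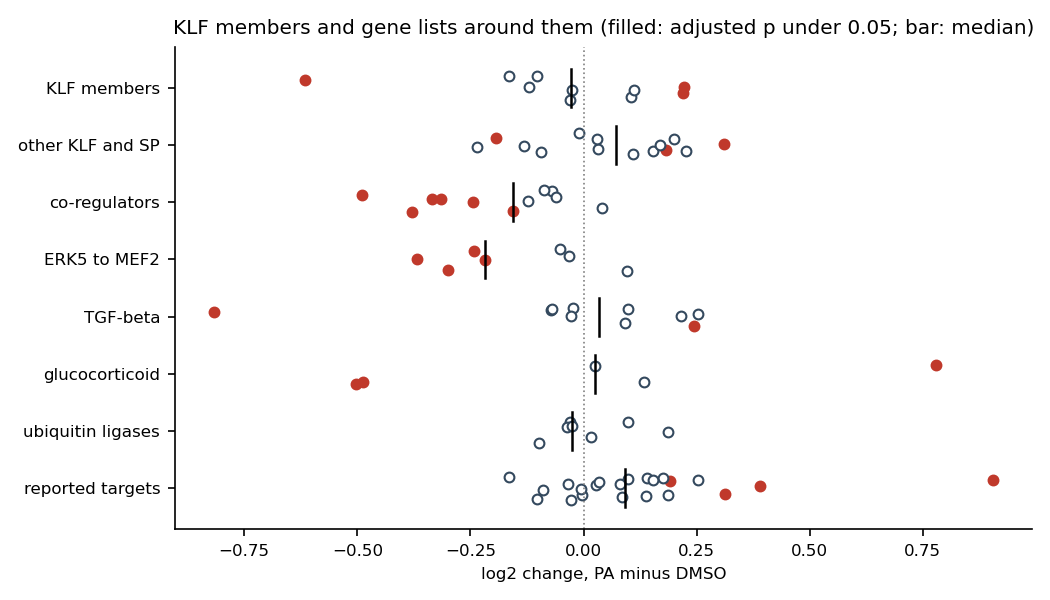
Log2 change, PA minus DMSO (horizontal axis), of each tested gene of the KLF family and of the 7 lists around it (rows); filled red points have an adjusted p under 0.05 and short vertical bars are list medians. The filled points of the co-regulators and of the ERK5 to MEF2 route all lie below 0 and those of the reported targets above 0, while the KLF members lie on both sides.

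The genes whose signals followed KLF9 most closely over the 8 arrays were CTR9 (Pearson's r = 0.996), a subunit of the PAF1 transcription complex, TMEM135 (0.989), the ephrin receptor EPHA4 (0.987), ZMYM2 (0.986) and the chromatin remodeler CHD9 (0.986). All 5 fell in PA cells, with log2 changes of -0.46 to -0.23, so this likeness holds the difference between the groups. Over deviations from the group means, which leave that difference out, the highest r-values lay between 0.952 and 0.985 and were led by ZNF615, C1R, CTR9 and PTP4A3. These were picked among all genes over 8 arrays and are a description only.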

How the data were processed

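The authors labelled RNA with a 3′ IVT kit, scanned Affymetrix Human PrimeView arrays and deposited log2 signals, made with Partek by the RMA steps (background correction, quantile normalization, then median polish). GCOS is also named, and no tool has a version in the labels. The values have 2 decimals and run from 2.37 to 14.62. Whether arrays of a second cell line entered the normalization is not given in the sources used here, and that line was not analysed here. Symbols came from the platform annotation, and 0 member symbols needed an update.

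From these signals PA was compared with DMSO with limma 3.58.1 (lmFit and eBayes, R 4.3.3) over all tested features, two-sided, without a covariate, with Benjamini-Hochberg adjustment. The limit of 4 on the higher group mean and the adjusted p under 0.05 are described with the results. Exact permutation tests used numpy 2.4.6, their Benjamini-Hochberg adjustment over the pairs of probe sets scipy 1.17.1, and figures matplotlib 3.10.9. The fits were tested on simulated data. The number of arrays limits the precision. Replicate numbers were not used to pair the samples in the main fit, since the labels do not say whether they do. Deviations of PA and DMSO arrays with the same number correlated at -0.153 to 0.0527, which cannot settle how the samples were handled. All 10 members were named at every probe set, and in each of the 7 lists around them and the marker lists up to 4 genes with the smallest adjusted p, plus a few chosen for their role. The members, lists and rules were chosen with earlier results of these data known. The alternatives tried are given in the closing observations.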

Additional observations from a re-analysis of the deposited data

Results flagged for a closer look

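In 5 of 52 groups of 4 arrays at the tested KLF probe sets, 1 array lay far from the other 3 by Dixon's test, and chance alone gives about 1 in 20 groups. PA replicate 1 of KLF3 (11729232_s_at) was at 8.57 with the other 3 at 8.58, a gap of the last decimal that the files hold. PA replicate 2 of KLF4 (11719634_a_at) was at 8.43, above the other PA arrays at 8.29 to 8.31. PA replicate 2 of KLF7 (11759430_at) was at 4.75, below the other PA arrays at 5.10 to 5.15. DMSO replicate 4 was low at KLF6 (11716095_s_at), at 10.42 with the others at 10.64 to 10.68, and at the third KLF9 probe set (11717328_at), at 4.05 with the others at 4.25 to 4.27.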

How the results depend on the processing

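Of the members' 197 values with a test under the alternatives, 181 kept their direction and their side of the threshold, 9 lost the call, 2 gained it and 5 turned in sign, all 5 in members that were not called. As ratios of unlogged means, which have no test, all 10 members kept their direction. The sign turned for KLF3 (0.037) and KLF13 (0.10) with the GC-rich background in the fit, KLF7 without DMSO replicate 3 (0.032) or PA replicate 2 (0.067), and KLF13 without PA replicate 1 (0.013). Leaving out 1 array gave -0.082 to 0.067 for KLF7, -0.070 to 0.013 for KLF13, -0.23 to -0.028 for KLF5, 0.059 to 0.17 for KLF4 and 0.087 to 0.15 for KLF10, none of which was called.

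Of the genes, 2 rose and 1 fell. With centring on the array median 1 rose, where 7.63% of all genes rose, and with a one-way ANOVA with Benjamini-Hochberg adjustment 1 rose (8.33%), since KLF6 was lost (adjusted p = 0.0509 and 0.0524). Centring also moved the share of raised among all called genes, to 34.9% beside 44.9% without it. With the GC-rich background in the fit 0 rose and 0 fell, where only 1.56% of all genes rose and 1.52% fell. At a change of at least 25% 0 rose (3.0% of all genes), at 1.5-fold 0 rose, and at an unadjusted p under 1e-05 and 1.5-fold 0 rose (0.342%) and 0 fell (0.223%). Leaving out 1 array gave 1 to 2 raised and 1 to 2 lowered genes, with 1 raised without DMSO replicate 1 or PA replicate 1, 2 or 3 and 2 lowered without DMSO replicate 3 or 4.

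Of the probe sets, 4 rose and 2 fell. The raised count was 2 with centring (6.14% of all probe sets) and with the ANOVA (6.76%), 1 at a change of at least 25% (2.97%), and 0 at 1.5-fold (0.475%), at p under 1e-05 (0.297%) and with the GC-rich background (0.952%). The lowered count was 1 with the GC-rich background (0.612%), 1 at 1.5-fold (0.658%) and 0 at p under 1e-05 (0.194%). Leaving out 1 array gave 2 to 6 raised and 2 to 3 lowered, with 2 raised without DMSO replicate 4 or PA replicate 1, 2 or 4. With the replicate number as a block 1 probe set rose, where 4.09% of all probe sets rose, and the gene calls of KLF2 (adjusted p = 0.0449), KLF6 (0.0474) and KLF9 (0.0110) held. Whether samples with the same number were handled together is not given in the labels. KLF5 gave no value at a minimum of 5, nor KLF5 and KLF7 at 6. The causes were not tested.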
